A study of Mus musculus with 67 samples.

Results

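EPZ6438 was added alone to organoids of the mouse small intestine, and 6 bulk RNA-seq libraries of that condition (+E) were set against 7 libraries of the same medium without it (NC), 13 of the 67 libraries in the series. The labels say which libraries belong to each condition. Both media held 3 inhibitors, LDN193189 at 0.2 µM, Pexmetinib at 1 µM and GSK3iXV at 0.1 µM, with FGF2 at 20 ng/mL, EGF at 50 ng/mL and 10% of a medium conditioned with R-Spondin 1, and neither held VPA. The +E medium also held 2 µM EPZ6438. The control cells were therefore already exposed to inhibitors of BMP receptors, of GSK-3 and of the kinases p38 and Tie2, so that the comparison gives the change with EPZ6438 on that background and not in standard organoid medium. In 2 further groups of 7 libraries each, VPA was present at 500 µM without EPZ6438 (+V) or with 2 µM EPZ6438 (+VE). The labels do not say whether replicates came from separate mice. The study counts mice as the replicates of its experiment on the components of this medium, and fewer of them than there are libraries in a group here, so some libraries of a group may share a mouse. Which ones is not given, and p-values then measure only the spread between these cultures and may be too small. They give no time of exposure. Crypts for culture came from the proximal small intestine of mice 6 to 12 weeks old, and the strain of each library is not given in the sources used here.

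EPZ6438 (tazemetostat) inhibits EZH2, the catalytic subunit of Polycomb repressive complex 2 (PRC2), which places methyl groups on lysine 27 of histone H3. Genes that carry this mark in the intestine include regulators of other tissues and the cell cycle inhibitor Cdkn2a, and without the enzyme the mark is diluted as cells divide. The compound blocks the enzyme and does not act on the transcript of Ezh2, so Ezh2 RNA is no check of the treatment. The mark itself is not measured in these libraries. VPA (valproic acid) inhibits histone deacetylases.

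The libraries fell into sets by replicate number. Libraries of the same number resembled each other across +E and NC, and numbers 1 to 3 separated from numbers 4 to 6 along the leading principal component, which held 51.5% of the variance. NC replicate 7 has no +E partner and adds nothing to the blocked change of +E over NC, although it enters the interaction with VPA given further on. It also stood apart: Hoxb9 was at 9.83 TPM there and at most at 0.0822 TPM in the other NC libraries, and Hoxb6 was at 6.81 TPM against at most 0.571 TPM. Transcripts of Xist and of the Y chromosome matched by number, except that both libraries numbered 1 held both kinds, with Ddx3y at 21.4 TPM in NC and 7.31 TPM in +E. Their part in the results was not tested, and each result that changes without pair 1 or another pair is given with its value. Summed TPM of 15 epithelial identity genes lay between 13125 and 16514 in NC and between 13307 and 16187 in +E, with none called. Of 13 fibroblast and muscle markers, 11 stayed under 1 TPM in all 13 libraries, as did 9 of 12 immune markers and 5 of 6 endothelial markers. Their summed levels were 6.55 to 11.4 TPM in NC and 12.6 to 23.9 TPM in +E for fibroblast and muscle, 1.01 to 4.56 and 2.13 to 4.29 for immune, and 0.637 to 2.04 and 0.448 to 0.984 for endothelial markers. The higher sum of the fibroblast list came with Vim, its only tested member, and Col1a1, Col3a1, Pdgfra and Acta2 stayed under 1 TPM.

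The question was which genes change when EZH2 is inhibited without VPA. TPM divides counts by transcript length, so levels can be set between genes. Changes were tested with limma on log2(TPM + 1), with the replicate number as a block, and a called gene had an adjusted p (Benjamini-Hochberg) below 0.05 together with a 2-fold or larger change on that scale, which understates the change of weakly expressed genes. Most called genes were higher with EPZ6438. Of 12263 genes tested, 427 were called higher (3.48% of those tested) and 41 were called lower (0.334%). The count of each gene list below is to be set beside these shares, and a list with few calls is a description. Of the 427, 72 rose at least 4-fold and 14 at least 8-fold, and 423 were higher in all 6 pairs. All 6 pairs were lower for 39 of the 41. The calls were made on these same pairs, so agreement among them was largely fixed and is a description. Groups did not overlap for 283 of the genes called higher and 20 of those called lower, against 4.19% of all genes tested. Of the genes called higher, 87 lay under 1 TPM in every NC library and passed the minimum mean of 1 TPM only through +E, so their direction was fixed by that filter. Amotl1, Arxes1, Armcx6, Eomes, Foxc1, Gja1, Sgce, Tbx18 and Twist1 are among them. With no minimum mean, 487 genes were called, 464 of them shared with the 468. Without the minimum fold the picture was even, with 1799 genes higher and 1637 lower, and the median change over all genes tested was -0.03. On chromosome X lay 28 of the genes called higher, or 6.56%, beside 2.94% of the genes tested, and none of those called lower.

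**Figure D1:**
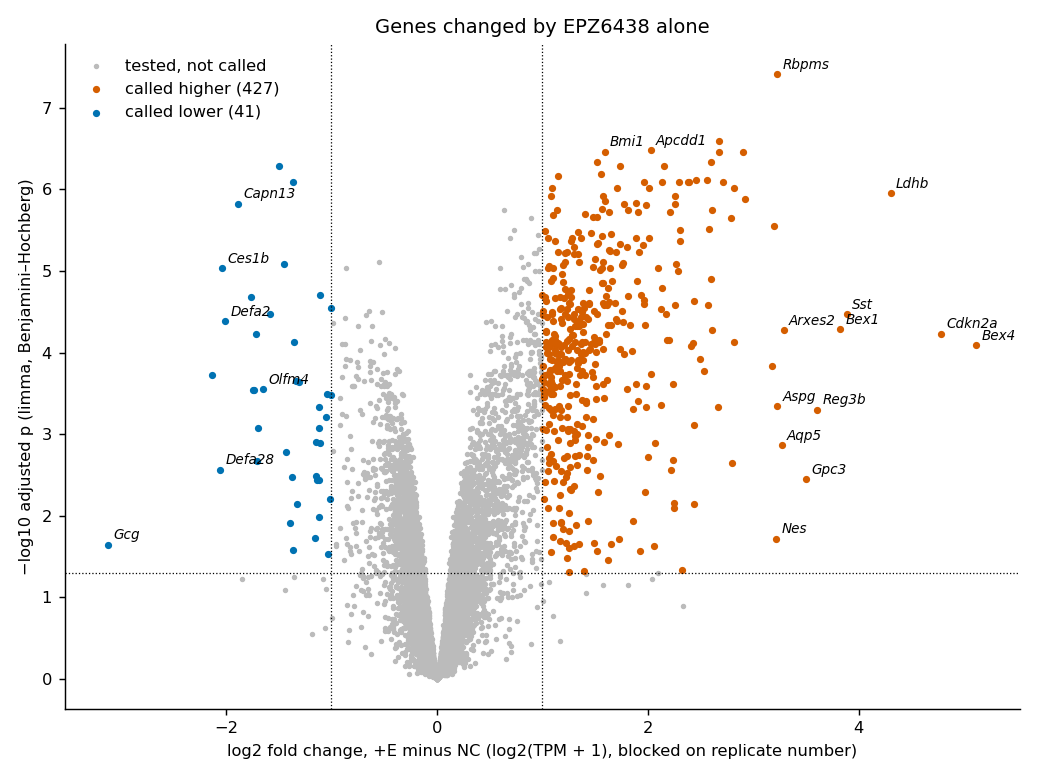
Change with EPZ6438 alone for the 12263 genes tested. The x axis gives the log2 fold change of +E over NC on log2(TPM + 1) and the y axis the negative log10 of limma's adjusted p. Orange points are the 427 genes called higher and blue points the 41 called lower, dotted lines mark the thresholds, and the points past them lie mostly to the right.

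The largest rises were those of Bex4, Cdkn2a and Ldhb, and Olfm4, an abundant stem cell marker, was among the falls. The 250 bases before the start of these genes are shown as RefSeq gives them (GRCm38.p6, the build mm10 of the authors' mapping), read along the strand of the gene with every CpG in capitals, because CpG islands are the promoter feature most often described for PRC2 targets. Bex1, a neighbour of Bex4 on chromosome X that rose with it, is shown beside it. Where RefSeq lists several starts the farthest upstream was taken.
Bex4 (chrX:136138746-136138995, plus strand): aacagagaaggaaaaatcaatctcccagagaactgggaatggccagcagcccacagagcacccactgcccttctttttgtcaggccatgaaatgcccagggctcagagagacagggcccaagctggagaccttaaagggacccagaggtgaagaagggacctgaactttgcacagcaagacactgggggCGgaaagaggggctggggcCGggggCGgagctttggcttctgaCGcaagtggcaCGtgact
Bex1 (chrX:136215514-136215763, minus strand): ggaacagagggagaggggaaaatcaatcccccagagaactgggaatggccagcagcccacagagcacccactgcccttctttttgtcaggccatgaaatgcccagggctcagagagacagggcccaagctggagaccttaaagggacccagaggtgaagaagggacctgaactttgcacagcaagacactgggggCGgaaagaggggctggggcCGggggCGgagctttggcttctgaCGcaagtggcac
Cdkn2a (chr4:89294620-89294869, minus strand): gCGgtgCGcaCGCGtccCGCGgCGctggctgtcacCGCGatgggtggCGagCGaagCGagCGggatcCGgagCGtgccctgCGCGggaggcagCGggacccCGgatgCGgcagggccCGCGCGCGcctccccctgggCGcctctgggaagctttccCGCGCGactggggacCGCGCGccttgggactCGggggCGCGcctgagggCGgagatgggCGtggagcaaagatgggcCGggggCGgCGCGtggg
Ldhb (chr6:142507958-142508207, minus strand): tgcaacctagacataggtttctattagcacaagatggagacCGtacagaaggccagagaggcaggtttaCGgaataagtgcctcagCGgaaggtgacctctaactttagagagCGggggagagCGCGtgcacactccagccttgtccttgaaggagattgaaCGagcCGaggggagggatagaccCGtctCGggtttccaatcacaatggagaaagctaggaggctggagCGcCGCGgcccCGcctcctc
Olfm4 (chr14:80000052-80000301, plus strand): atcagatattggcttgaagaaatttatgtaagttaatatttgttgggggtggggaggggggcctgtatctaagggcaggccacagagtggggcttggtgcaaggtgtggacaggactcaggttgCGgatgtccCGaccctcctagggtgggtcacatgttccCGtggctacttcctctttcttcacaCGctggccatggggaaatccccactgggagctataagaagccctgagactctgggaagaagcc
The windows of Bex4 and Bex1 share an unbroken stretch of 221 identical bases on opposite strands, with 4 CpG in it. The window of Cdkn2a holds 40 CpG (CG on either strand reads the same), a number that 1.28% of the 27025 genes with a window in the RefSeq table reach. Ldhb holds 14, which 29.5% reach. Bex4 holds 5 and Bex1 and Olfm4 hold 4 each, numbers reached by 55.5% and 61.9% of genes. The CpG counts differed widely among these genes. The window of Olfm4 lies inside the span of the gene in GENCODE (chr14:79984081-80023139), which starts farther upstream. The window of Cdkn2a overlaps the edge of its span there (chr4:89274471-89294653). RefSeq lists 2 starts for Cdkn2a, and the 40 CpG belong to the one farther upstream.

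Bex4, a small brain-expressed X-linked protein, lay between 0 and 5.12 TPM in NC (median 1.05) and between 64.3 and 93.5 TPM in +E (median 74.3). The groups did not overlap, and the change was 5.12 on the log2 scale (SE 0.33, adjusted p = 8.1e-05). Bex1 lay between 1.34 and 21.3 TPM in NC (median 5.17) and between 58.1 and 77.1 TPM in +E (median 68.4), a change of 3.82 (SE 0.24, adjusted p = 5.2e-05). Neither gene overlapped between groups, and the highest NC value of Bex1 was that of replicate 7. Of 25 listed X-linked genes of the Bex, Tceal, Armcx and Arxes families, 14 were tested, 9 were called higher and none lower, with a median change of 1.66. Arxes1 and Armcx6, among the 9, passed the minimum mean only through +E, so the count and median are a description. Arxes2 changed by 3.29, Tceal8 by 2.25, Armcx3 by 2.01, Arxes1 by 1.81, Bex2 by 1.73, Bhlhb9 by 1.59 and Armcx6 by 1.37. Arxes1 and Arxes2, and Bex1 and Bex2, are near copies among which reads may have been shared out.

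The CDK inhibitors block cyclin-dependent kinases and so the cell cycle. All 7 listed members were tested, 3 were called higher and none lower, with a median of 0.74. Cdkn2a, whose gene encodes both p16-Ink4a and p19-Arf, lay between 0 and 1.97 TPM in NC (median 0.774) and between 29.8 and 64.4 TPM in +E (median 57.6). No libraries overlapped, and the change was 4.78 (SE 0.30, adjusted p = 5.9e-05). The value of the gene does not separate its transcripts. Cdkn1c, an imprinted inhibitor, went from a median of 5.67 TPM (4.36 to 7.66) to 12.9 TPM (10.4 to 18.3), a change of 1.12 (SE 0.08, adjusted p = 4.3e-06). Cdkn1a, the p53 target p21, changed by 1.03 (SE 0.07, adjusted p = 3.2e-06), just past the 2-fold line, and by 0.97 without replicate number 3. Its groups overlapped only through NC replicate 7, at 287 TPM, since the other NC libraries lay between 96.6 and 116 TPM and the +E libraries between 165 and 262 TPM. Of 24 p53 target genes 3 were called higher, Cdkn1a, Phlda3 (1.64) and the receptor Eda2r (1.54), and none lower, with a median of 0.37. The groups of Eda2r also overlapped only through NC replicate 7, at 13.9 TPM. With numbers 4 to 6 only, Eda2r changed by 0.995 and was not called.

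Genes of replication and mitosis gave no calls. Changes of 33 DNA replication genes lay between -0.26 and 0.30, and those of 28 mitosis genes between -0.17 and 0.21. At an adjusted p under 0.05 without a minimum fold, 2 replication genes were higher and 3 lower, and 6 mitosis genes were higher.

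**Figure D2:**
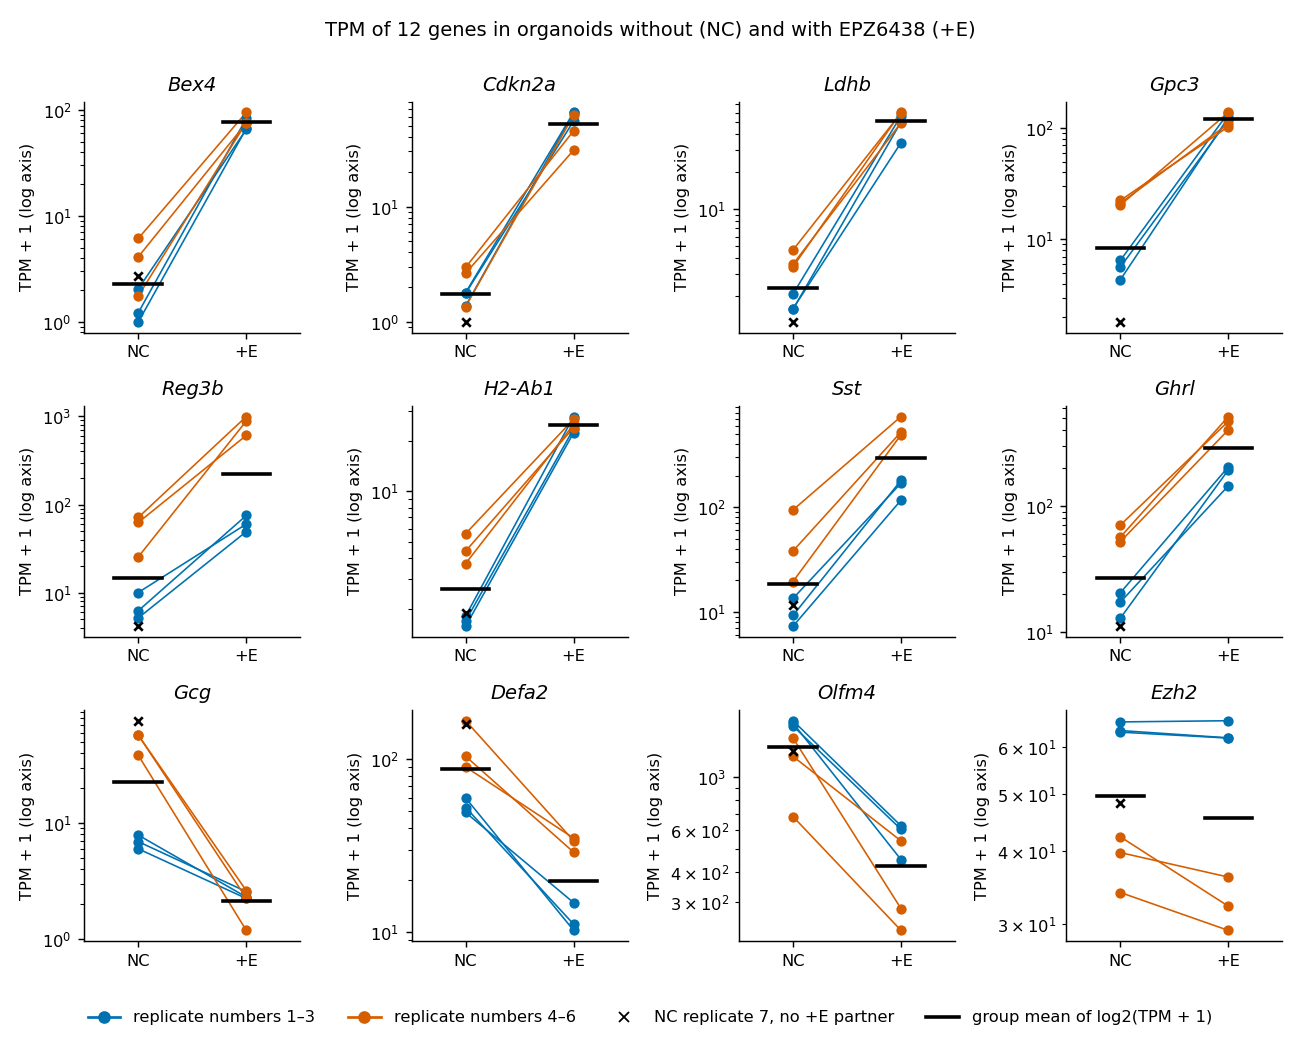
TPM + 1 on a log axis for 12 genes in NC and +E. Points are libraries, lines join libraries of the same replicate number (blue for 1 to 3, orange for 4 to 6), crosses mark NC replicate 7 and bars are group means of log2(TPM + 1). Bex4, Cdkn2a, Ldhb, Gpc3, H2-Ab1, Sst and Ghrl rose in all pairs without overlap, Gcg, Defa2 and Olfm4 fell in all pairs, and Ezh2 stayed between 28.3 and 65.6 TPM in the libraries shown.

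None of the 14 genes for PRC2 subunits and cofactors was called. Ezh2 lay between 33.0 and 65.3 TPM in NC and between 28.3 and 65.6 TPM in +E, with a change of -0.14 (SE 0.06, adjusted p = 0.123). The changes of Ezh1 and Eed were -0.20 (adjusted p = 0.0652) and -0.13 (adjusted p = 0.0871), and that of Suz12 was -0.22 (adjusted p = 0.0182), which is well under 2-fold. The cofactors Epop (0.61, adjusted p = 7.3e-05) and Phf19 (0.41, adjusted p = 0.00102) passed the adjusted p in the other direction, also below 2-fold. Among the 22 genes of the companion complex PRC1, which binds the mark, Bmi1 alone was called. It lay between 20.3 and 32.7 TPM in NC and between 71.7 and 111 TPM in +E, without overlap, for a change of 1.59 (SE 0.07, adjusted p = 3.4e-07). Of the other PRC1 genes, 8 were higher at an adjusted p under 0.05 below the 2-fold line, the largest of them Cbx2 at 0.66, and Pcgf6 (-0.30) and L3mbtl2 (-0.28) were lower.

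Some regulators of development of other tissues rose from low levels. The Hox genes specify position along the body axis, and 5 of the 39 listed were expressed enough to be tested, all of them in the Hoxa cluster. Hoxa5 changed by 2.10 (SE 0.16, adjusted p = 9.2e-06), from 0.996 to 4.04 TPM in NC to 4.57 to 11.9 TPM in +E. Hoxa7 changed by 1.98 and Hoxa3 by 1.07, which was 1.00 without replicate number 3 and then just short of 2-fold. Of the 38 Hox genes in the table, 24 stayed under 1 TPM in all libraries. Of 152 listed transcription factors of other tissues, 26 were tested, 9 were called higher and 1 lower, with a median of 0.53, and 117 stayed under 1 TPM in every library. Twist1, a regulator of mesenchyme, went from at most 0.260 TPM in NC to between 2.18 and 14.5 TPM in +E, a change of 2.53. Tbx18 went from at most 0.0396 TPM to between 0.836 and 11.3 TPM, a change of 2.44. Since these genes passed the minimum mean only through +E, the count and median of the list are a description. With no minimum mean, the adjusted p was 0.00173 for Twist1 and 0.0108 for Tbx18. Eomes changed by 2.25, Foxc1 by 1.54, Isl1 by 1.52, Irx2 by 1.49 and Sox21 by 1.10, with Lmx1a between Isl1 and Irx2. Barx2 fell by 1.00 (SE 0.09, adjusted p = 2.8e-05), from between 19.2 and 29.5 TPM to between 10.0 and 12.5 TPM. Some of these calls did not hold with 1 replicate number left out. Irx2 had an adjusted p of 0.0641 without number 3 and Barx2 changed by -0.96, -0.94 and -0.98 without numbers 2, 3 and 5. The groups of Irx2 overlapped only through NC replicate 7, at 4.96 TPM. Irx2 changed by 2.44 in pairs 1 to 3 and by 0.54 in pairs 4 to 6.

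Among the other genes with the largest rises, Ldhb, the heart-type subunit of lactate dehydrogenase, lay between 0.230 and 3.68 TPM in NC and between 33.3 and 59.2 TPM in +E, a change of 4.30 (SE 0.18, adjusted p = 1.1e-06). Gpc3, a cell surface proteoglycan, lay between 0.806 and 21.4 TPM in NC and between 102 and 138 TPM in +E, a change of 3.50 (SE 0.46, adjusted p = 0.00358). Neither gene overlapped between groups. The water channel Aqp5 changed by 3.27 (SE 0.39), Aspg by 3.23 (SE 0.31) and the RNA-binding protein Rbpms by 3.23 (SE 0.10), which had the smallest adjusted p of all genes tested (3.9e-08). Rbpms lay between 0.519 and 1.59 TPM in NC and between 13.3 and 19.1 TPM in +E. Nes, the intermediate filament nestin, changed by 3.22 (SE 0.66, adjusted p = 0.0193), but its groups overlapped through NC replicate 7, at 13.6 TPM, and its adjusted p was 0.0657, 0.0528 and 0.0553 without replicate numbers 1, 2 and 3. Of 49 imprinted genes, expressed from the copy of 1 parent, 25 were tested and 4 were called higher, with a median of 0.04. These were Grb10 (1.86), Sgce (1.81), Plagl1 (1.58) and Cdkn1c.

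Markers of the cell types of the epithelium moved in different directions. In bulk RNA, fewer cells of a type and less RNA per cell cannot be told apart. Of 28 enteroendocrine markers, 8 were called higher and 1 lower, 22 were higher at an adjusted p under 0.05, and the median was 0.84 beside -0.03 for all genes. Sst (chr16:23889573-23890958), the hormone somatostatin of D cells, lay between 6.29 and 93.1 TPM in NC (median 12.4) and between 116 and 732 TPM in +E (median 335), a change of 3.89 (SE 0.21, adjusted p = 3.4e-05). Ghrl, the hormone ghrelin, lay between 10.1 and 69.4 TPM in NC (median 19.4) and between 144 and 512 TPM in +E (median 302), a change of 3.20 (SE 0.14, adjusted p = 2.8e-06). Neither hormone overlapped between the groups. Gcg (chr2:62474530-62483650), the precursor of glucagon and GLP-1, went the other way. It lay between 5.00 and 74.8 TPM in NC (median 37.2) and between 0.194 and 1.63 TPM in +E (median 1.29), a change of -3.12 (SE 0.68, adjusted p = 0.0227). This call was lost without replicate number 1, 4 or 5, with changes of -3.39, -2.86 and -2.74 and adjusted p of 0.0504, 0.0519 and 0.0564, though all pairs fell. In NC it lay between 5.00 and 6.88 TPM in replicates 1 to 3 and at 37.2 TPM or more in the others. The granule protein Chga changed by 1.38, Scg5 by 1.53, Pcsk1n by 1.29, the hormone Sct by 1.18 and the processing enzyme Cpe by 1.09, and the factor Isl1, named above, is also on this list. Cck (0.34), Gip (0.95) and Pyy (0.79) did not pass the test. Neurog3, the factor that commits cells to this lineage, changed by 0.34, which passed the adjusted p and not the fold.

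Several α-defensins of Paneth cells fell, though the family was not counted as a list of its own. Of 17 Paneth markers tested, 7 were called lower and none higher, 12 were lower and 3 higher at an adjusted p under 0.05, and the median was -0.70. All 7 were α-defensins, antimicrobial peptides of the granules. Defa2 lay between 48.3 and 166 TPM in NC (median 89.4) and between 9.23 and 34.0 TPM in +E (median 20.9), a change of -2.01 (SE 0.15, adjusted p = 4.1e-05), with no overlap. The changes of Defa22, Defa5, Defa21, Defa20 and Defa26 were -1.74, -1.73, -1.71, -1.70 and -1.36. Defa30, the most abundant of those called, changed by -1.01, from between 832 and 2723 TPM to between 385 and 1052 TPM, and by -0.95 and -0.94 without replicate numbers 2 and 4. Defa28 (-2.06) and Defa29 (-1.77), which were not on the list, were among the largest falls too. These genes are near-identical and the counting may have shared reads out among them, which leaves each single value uncertain. The other Paneth genes moved less, with Lyz1 at -0.70 and Ang4 at -0.29, both past the adjusted p, and Itln1 at -0.26, which was not. Mmp7, the protease that activates defensins (0.50), Nupr1 (0.51) and Fgfrl1 (0.39) passed the adjusted p in the other direction.

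Other genes with large falls and no overlap were Khdc1a (-2.13, SE 0.22), the carboxylesterase Ces1b (-2.04, SE 0.15), the calpain protease Capn13 (-1.89, SE 0.11) and the hormone-like peptide Pthlh (-1.71, SE 0.16). Ces1b lay between 6.48 and 16.7 TPM in NC and between 0.885 and 2.79 TPM in +E, and Capn13 between 12.4 and 23.8 TPM and between 2.22 and 5.32 TPM. Ces1b is 1 of a cluster of similar genes, so its reads are uncertain in the same way.

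Among 19 stem cell markers Olfm4 alone was called. It lay between 682 and 1713 TPM in NC (median 1451) and between 228 and 624 TPM in +E (median 496), so that no library overlapped, and it fell by 1.65 on the log2 scale (SE 0.15, adjusted p = 2.8e-04). Lgr5, the receptor that defines crypt base stem cells, lay between 45.5 and 74.4 TPM in NC and between 48.1 and 64.8 TPM in +E. Its change was 0.01 (SE 0.08, adjusted p = 0.916). The median of the list was -0.04. Aqp4, at -0.87, was the next lowest.

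Other lineages gave fewer calls. Of 27 enterocyte markers 3 were called higher, the peptidase Anpep (1.23) and lactase, Lct (1.05), among them, and none lower, with a median of -0.03. Lct changed by 0.98, 1.00 and 0.97 without replicate numbers 1, 2 and 4 and was then just short of 2-fold. The alkaline phosphatases Akp3 (-1.85, adjusted p = 0.0596) and Alpi (-1.44, adjusted p = 0.0822) were lower in all 6 pairs without passing the test. Of 15 goblet markers 2 were called higher, the chemokines Ccl6 (1.51) and Ccl9 (1.16), with a median of 0.17. Without the minimum fold 4 were higher and 3 lower, the lowest Clca1 (-0.63) and Fcgbp (-0.62). Of 10 tuft markers tested none was called, and 7 were higher at an adjusted p under 0.05, with a median of 0.56 and Ptgs1 the highest at 1.00. The stomach peptide Tff2 changed by 2.22 (SE 0.32, adjusted p = 0.00278), the only member called of 4 tested in a list of 16 gastric and foregut genes. The neurofilaments Nefl (1.07) and Nefm (1.06) were called among the 5 neuron and glia markers tested of 16 listed. Among those not tested, Elavl3, Elavl4, Stmn2 and Sox10 stayed under 1 TPM in every library.

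**Figure D3:**
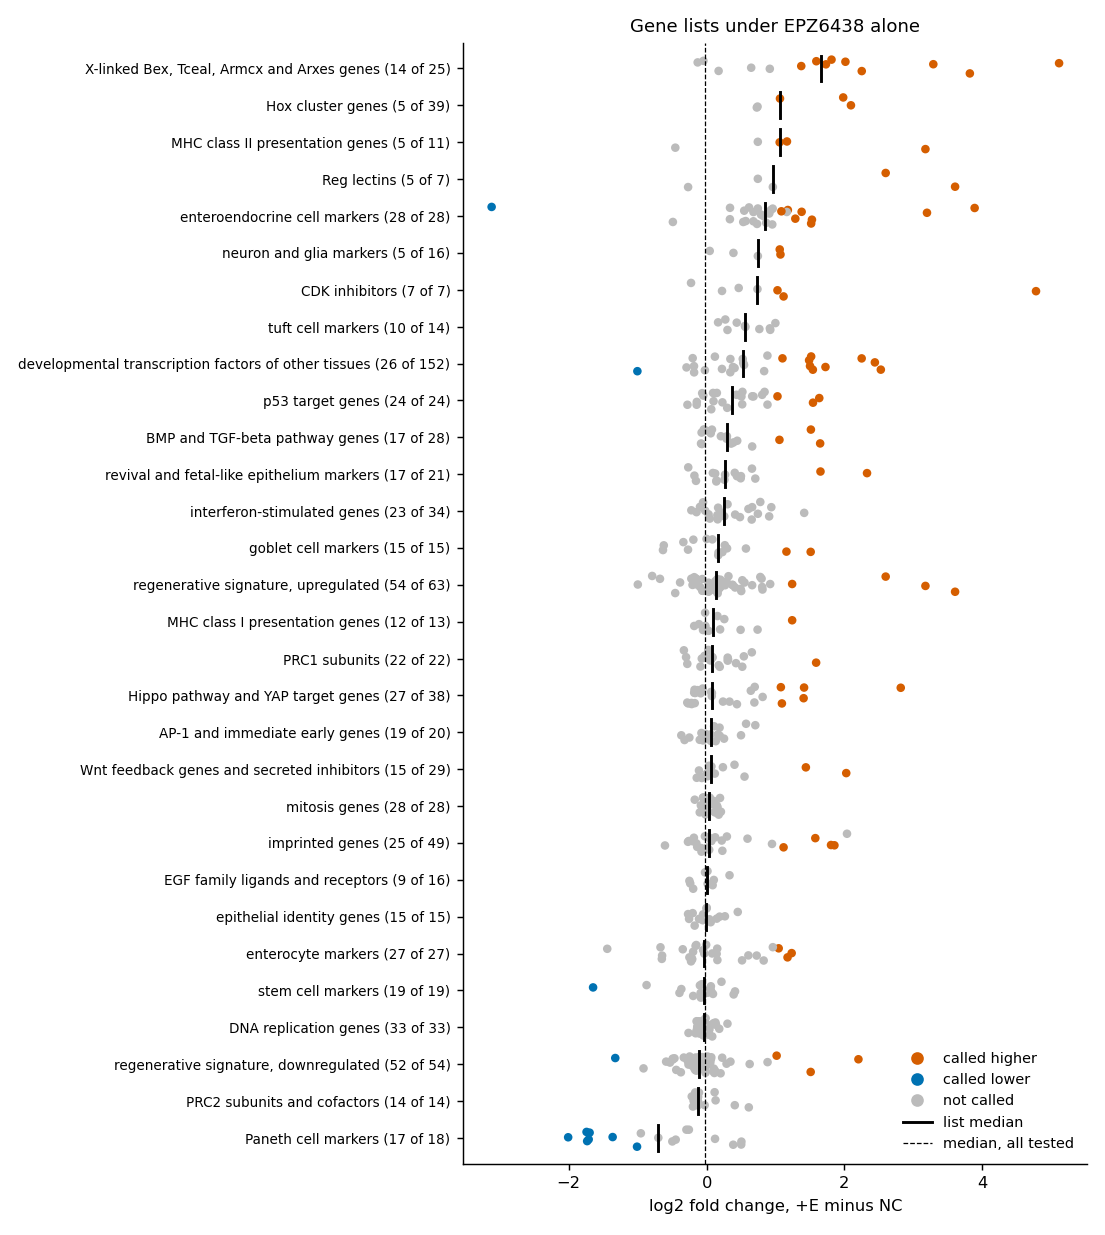
Change with EPZ6438 alone for the members tested of each gene list with at least 5 of them. Points are genes (orange called higher, blue called lower, grey not called), black bars are list medians, the dashed line is the median of all genes tested at -0.03, and the numbers in brackets give members tested of members listed. The X-linked families lie highest, with a median of 1.66, and Paneth markers lowest, with -0.70. Some members passed the minimum mean only through +E, so the medians of their lists are a description.

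Antimicrobial lectins and antigen presentation were next. Reg3b (chr6:78370657-78373466), a lectin that kills bacteria, lay between 3.17 and 70.4 TPM in NC (median 9.05) and between 48.4 and 996 TPM in +E (median 341), a change of 3.61 (SE 0.32, adjusted p = 5.0e-04). Reg3g changed by 2.60 (SE 0.15, adjusted p = 1.3e-05). Both rose in all pairs, but the groups overlapped since numbers 4 to 6 lay above 1 to 3 in NC and in +E. The 2 genes are close copies between which reads may have been shared out. Reg1 (0.96) and Reg4 (0.74) passed the adjusted p below 2-fold, and Reg3a (-0.27) did not. Of the genes of MHC class II, which presents peptides to T cells, 5 of 11 were tested and 3 were called higher, with a median of 1.06, while the protease Ctss (-0.45) passed the adjusted p in the other direction. H2-Ab1, the β chain, lay between 0.571 and 4.59 TPM in NC and between 21.4 and 26.9 TPM in +E, a change of 3.18 (SE 0.27, adjusted p = 1.4e-04). H2-DMa changed by 1.17 and H2-DMb1 by 1.06, the latter by 0.99 without replicate number 5. H2-Aa, the α chain that pairs with H2-Ab1, and Ciita, the factor that drives these genes, stayed under 1 TPM in every library, and Cd74 had a mean under 1 TPM. In class I, H2-Q7 (1.24) was called of 12 tested. None of 23 interferon-stimulated genes was called, with a median of 0.26, 3 higher at an adjusted p under 0.05 and Isg15 at 1.42 without passing it.

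The injury-associated regenerative signature of the study holds 63 upregulated and 54 downregulated genes. Of 54 upregulated genes tested, 4 were called higher (Reg3b, Reg3g, H2-Ab1 and H2-Q7) and none lower, with a median of 0.13, and without the minimum fold 16 were higher and 3 lower. Of 52 downregulated genes, 3 were called higher (Scin, 2.20, Ccl6 and Ces2a, 1.02) and Ces1f was called lower (-1.32), with a median of -0.11, and without the minimum fold 6 were higher and 15 lower. Of all 12263 genes tested, 3.48% were called higher and 0.334% lower, and without the minimum fold 1799 were higher and 1637 lower. With so few calls, the counts are a description of the signature. Ces2a changed by 0.94, 0.93 and 0.92 without replicate numbers 1, 2 and 3. Clu, a marker of revival stem cells, lay between 7.05 and 119 TPM in NC and between 11.1 and 342 TPM in +E, with a change of 0.71 (SE 0.56, adjusted p = 0.398) and a rise in 4 of 6 pairs. Ly6a, which encodes SCA1, changed by 0.27 (adjusted p = 0.614) and Anxa1 by 0.44 (adjusted p = 0.484). In pairs 1 to 3 these genes had mean changes of -0.48, -0.41 and -0.50, and in pairs 4 to 6 of 1.89, 0.95 and 1.38. The change of Clu and that of Anxa1 were called different between the sets. Of 17 revival and fetal-like markers tested, Gja1 (1.65) and Wfdc2 (2.33) were called. The adjusted p of Gja1 was 0.0609, 0.0669 and 0.0549 without replicate numbers 1, 2 and 3. Wfdc2 rose in 5 of 6 pairs, with an adjusted p of 0.0464 that lay between 0.0667 and 0.119 without number 1, 3, 4, 5 or 6.

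Of 27 genes of the Hippo pathway, which restrains the coactivator YAP, and of YAP targets, 5 were called higher and none lower, with a median of 0.08. Amotl1, a binding partner of YAP, lay between 0.180 and 0.841 TPM in NC and between 6.69 and 15.3 TPM in +E, a change of 2.82 (SE 0.15, adjusted p = 9.6e-07). Tead2, a DNA-binding partner of YAP, lay between 4.53 and 13.1 TPM in NC and between 21.6 and 29.1 TPM in +E, a change of 1.41 (SE 0.17, adjusted p = 4.0e-04). The groups of Tead2 did not overlap. Those of Amotl1 did not either, but it lay under 1 TPM in every NC library and passed the minimum mean only through +E. Its direction was fixed by that filter, so its place in the count is a description. With no minimum mean Amotl1 was called too. Fstl1 changed by 1.41, Anxa6 by 1.09 and Ptpn14 by 1.08, with Anxa6 at 1.00 without replicate number 2, just short of 2-fold. Yap1 itself was at -0.06 and Ajuba at 0.07, and neither passed the test. Among 15 Wnt feedback genes and secreted inhibitors, Apcdd1 (2.03) and Nkd1 (1.44) were called, and Axin2 was at -0.07. Of 17 BMP and TGF-β genes Bmp1 (1.65), Smad6 (1.51) and Tgfb1 (1.06) were called, Smad6 with an adjusted p of 0.0739, 0.0921 and 0.0623 without replicate numbers 1, 2 and 3. No member was called among 19 AP-1 and immediate early genes, 9 EGF family genes, 4 demethylases and acetyltransferases of lysine 27, and 3 germline genes tested.

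Each set of replicate numbers gave its own estimate. All 468 called genes had the same sign in pairs 1 to 3 and in pairs 4 to 6. They were called on these same 6 pairs, which largely fixes that agreement, so it is a description. The size of the change was called different between the sets for 64 of the 468, by a test added after the data were seen (169 of 12263 genes in all). The change was larger in pairs 1 to 3 for 52 of the 64. Gpc3 changed by 4.55 in pairs 1 to 3 and by 2.45 in pairs 4 to 6, Nes by 4.74 and 1.69, Tbx18 by 3.58 and 1.30, and H2-Ab1 by 3.86 and 2.49. In the other direction Gcg changed by -1.54 and -4.70 and Tff2 by 1.43 and 3.01. For Gpc3, H2-Ab1 and Gcg the +E libraries of both sets were alike and the NC libraries of 4 to 6 were higher, as the plot of levels shows.

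**Figure D4:**
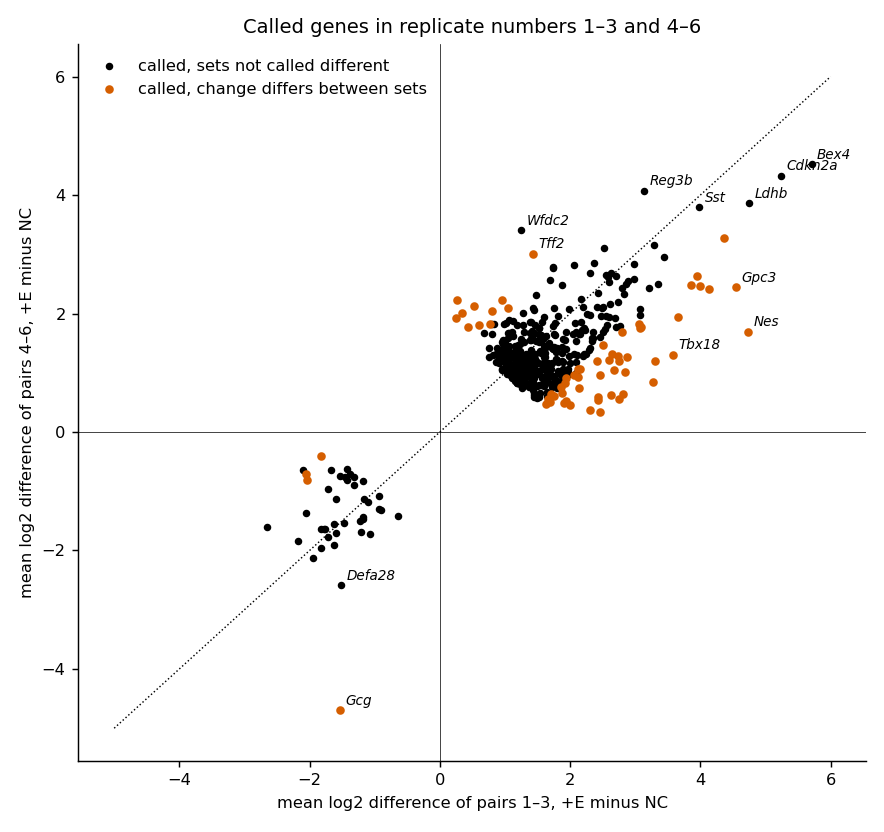
Mean log2 difference of +E over NC in pairs 1 to 3 (x axis) and pairs 4 to 6 (y axis) for the 468 called genes. Orange points are the 64 whose change was called different between the sets, and the dotted line marks equality. All points lie in the quadrants of equal sign, which their selection on these same pairs largely fixes. Of the orange points, 52 have the larger change in pairs 1 to 3.

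The same compound was also added beside VPA, in libraries that share no sample with those above. Of 12655 genes tested between +VE and +V, 552 were called higher (4.36%) and 44 lower (0.348%). Of the 427 genes called higher with EPZ6438 alone, 255 (59.7%) were called higher beside VPA too, which is 46.2% of the 552, and 409 of the 414 tested there were higher. Their median change was 1.36 alone and 1.22 beside VPA. Of the 41 genes called lower alone, 13 (31.7%, and 29.5% of the 44) were called lower beside VPA, with medians of -1.36 and -0.88. Across the 448 genes called alone and tested in both, Spearman's rho of the changes was 0.567, over genes, which are not independent replicates, in libraries that share replicate numbers. Sst changed by 4.77 beside VPA, Reg3b by 4.37, Cdkn2a by 3.92, H2-Ab1 by 3.77, Ghrl by 3.76, Twist1 by 3.72 and Ldhb by 3.28, all called. Of 17 Paneth markers 4 were called lower beside VPA and none higher, with a median of -0.62. Defa26 (-1.87), Defa30 (-1.65) and Lyz1 (-1.32) were among the 4. Defa2 changed by -0.28 (adjusted p = 0.607), from levels of 1.39 to 21.4 TPM in +V, where it was lower than in NC.

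The difference between both changes was tested as the interaction of EPZ6438 and VPA in all 4 groups. It was called for 127 of 12556 genes (1.01%), 85 with a larger value beside VPA and 42 with a smaller one. Of the 468 genes called alone, 51 were among them. Among genes called higher alone the difference was called below 0 for 35 and above 0 for 13. These genes were selected on the change without VPA, which enters the difference with a negative sign and favours a smaller rise beside VPA, so the counts are a description. Rbpms changed by 3.23 alone and 0.74 beside VPA (difference -2.55, SE 0.26, adjusted p = 2.8e-06), Aqp5 by 3.27 and 0.54 (difference -2.59, adjusted p = 0.0208), Stk26 by 2.50 and 0.61 (difference -1.89, adjusted p = 5.1e-05), Bex4 by 5.12 and 3.04 (difference -1.997, adjusted p = 0.00994) and Apcdd1 by 2.03 and 0.51 (difference -1.49, adjusted p = 2.4e-04). Rbpms, Bex4 and Stk26 were higher in +V than in NC to begin with, with medians of 16.2, 55.7 and 10.4 TPM. The small value of Aqp5 beside VPA averaged falls in numbers 1 to 3 and rises in the other numbers. In numbers 1 to 3 it lay between 18.85 and 31.9 TPM in +V and between 16.6 and 22.7 TPM in +VE. In the others it lay at 1.61 TPM or less in +V and between 1.55 and 4.86 TPM in +VE. Olfm4 fell by 1.65 alone and by 4.99 beside VPA (difference -3.29, SE 0.38, adjusted p = 1.8e-05), to between 6.57 and 41.1 TPM in +VE. The 5 genes with the largest differences above 0 passed the minimum mean of 1 TPM only through +VE, so their low levels in the other groups and the sign of the difference were largely fixed by that filter, and their levels are given as a description. Ifitm1 lay at most at 1.32 TPM in NC, at most at 0.378 TPM in +E and between 1.85 and 54.3 TPM in +VE, Fn1 at most at 0.130 TPM in NC and +E and between 1.29 and 31.1 TPM, Tmem47 at most at 0.432 TPM and between 3.00 and 11.6 TPM, and Sntb1 at most at 0.339 TPM and between 3.13 and 9.44 TPM. Dmrt1 was listed at 0 in NC, +E and +V and lay between 0.388 and 7.80 TPM in +VE. For Arxes1 (difference 2.01) and Sgce (1.12) the rise on log2(TPM + 1) was larger beside VPA. Both lay under 1 TPM in every NC library, where adding 1 shrinks a change. Mean TPM of Arxes1 went from 0.108 in NC to 3.04 in +E, and from 1.44 in +V to 29.9 in +VE. That of Sgce went from 0.0409 to 2.65 and from 0.160 to 7.80. As a ratio of these means, the rise of each was larger without VPA. The count of 127 was 81 without replicate number 1 and 141 without number 7, and the split of directions depends on the handling of low values, with 66.9% above 0 here, 29.1% with a pseudocount of 0.1 and 29.8% (14 above 0 and 33 below) with a minimum mean of 5 TPM.

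**Figure D5:**
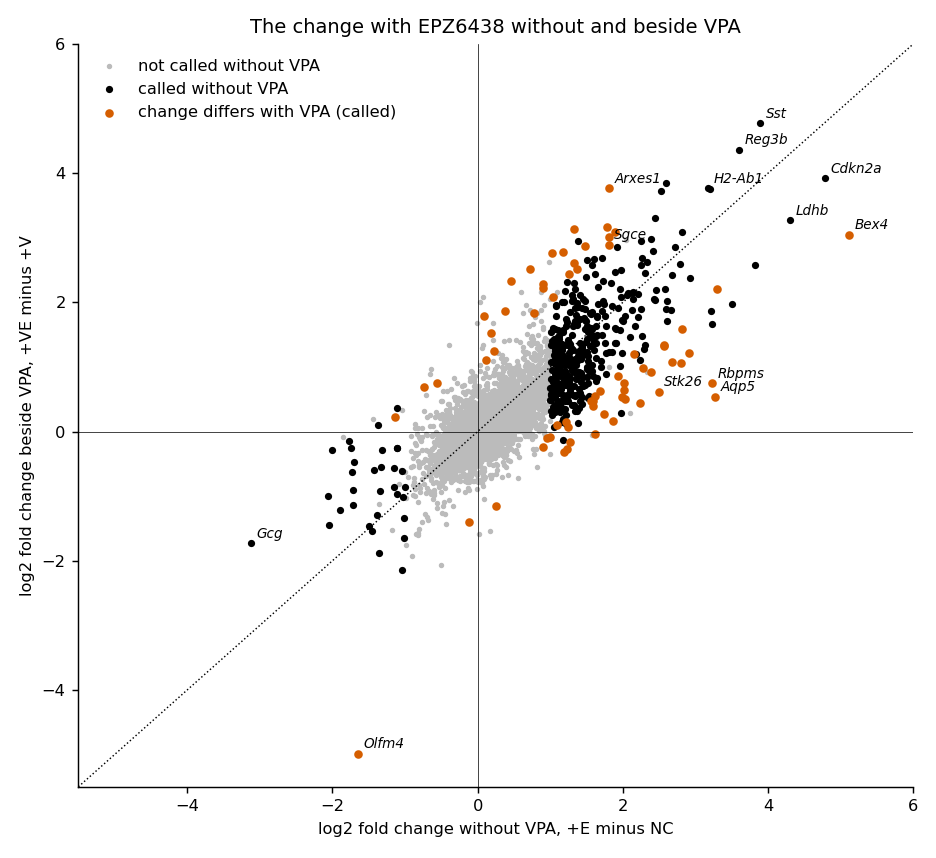
Change with EPZ6438 beside VPA (+VE over +V, y axis) against the change without VPA (+E over NC, x axis), both on log2(TPM + 1), for genes tested in both. Black points were called without VPA, orange points have an interaction that was called, and the dotted line marks equality. Olfm4 lies far below the line, Rbpms, Aqp5 and Bex4 lie below it at the right, and Arxes1 and Sgce lie above it.

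EPZ6438 alone was finally compared with VPA alone. This comparison shares the +E libraries with the one against NC, so the calls of both are not counted together. Of 12428 genes tested, 330 were called higher in +E than in +V (2.66%) and 128 lower (1.03%). Without the minimum fold the balance turned, with 1727 genes higher and 3395 lower, and the median over all genes tested was -0.07. The hormones Sst and Ghrl were higher by 6.61 (SE 0.26, adjusted p = 3.6e-06) and 4.32 (SE 0.26), the fetal plasma protein gene Afp by 5.37 (SE 0.14), Cdkn2a by 4.23 (SE 0.30) and Emid1 by 4.04 (SE 0.37). Afp lay between 52.5 and 64.7 TPM in +E, between 2.58 and 19.4 TPM in NC and between 0 and 1.19 TPM in +V, so that the 3 groups did not overlap. Cdkn2a lay between 0.698 and 3.94 TPM in +V, and Sst between 0 and 10.0 TPM. The largest differences the other way were those of Tesc (-2.96, SE 0.11), Gpm6a (-2.39, SE 0.28), Hapln4 (-2.37, SE 0.12), the galectin Lgals1 (-2.11, SE 0.09) and Ddah2 (-2.07, SE 0.15). Gpm6a did not reach the minimum mean over +E and NC. It passed here largely through +V, so its value is a description. Lgals1 lay between 237 and 394 TPM in +V and between 48.1 and 84.3 TPM in +E, where it was near its level in NC (40.3 to 135 TPM). Against NC, the adjusted p of Emid1 was 0.0272, and it was 0.0905, 0.0763 and 0.0616 without replicate numbers 1, 3 and 5.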

How the data were processed

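RNA of organoids was sequenced in bulk as paired reads. The authors used Trimmomatic 0.39 for trimming, STAR 2.7.3a for mapping (to mm10) and featureCounts for counting, and deposited 1 table of TPM for 29579 genes. The step from counts to TPM is not given in the sources used here. Library depth cannot be read from TPM and is unknown, so neither intervals for counting error nor detection floors are given. The listed genes of the 13 libraries summed to between 986768 and 988144 TPM.

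Groups and replicate numbers came from the labels. In R 4.3.3, log2(TPM + 1) was taken, genes whose average over the compared libraries fell below 1 TPM were left out, and limma 3.58.1 (lmFit, eBayes with trend and robust) was fitted with the replicate number as a fixed block. For the interaction the 4 groups NC, +E, +V and +VE entered 1 fit. P-values were adjusted by Benjamini-Hochberg over all genes tested, and calls needed an adjusted p below 0.05 and a 2-fold change. The numbers were taken to pair the samples because the deviations of same-numbered +E and NC libraries from their group means correlated across genes at 0.709 to 0.799. Libraries of other numbers in the same set, 1 to 3 or 4 to 6, correlated at 0.488 to 0.733, and each +E library was closest to the NC library of its own number, while NC 1 was closest to +E 3.

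Genes named are the 12 largest rises and 12 largest falls with all pairs in the same direction, every called gene of 36 gene lists, 13 genes of the study's question, and the 5 largest in each direction for the interaction and for +E against +V, with predicted genes skipped. A few genes that this rule names are not reported here. Values of the other list members are given where a group is described. The comparison, members and lists were chosen with earlier results of these data known, and the regenerative signature is the study's own. Alternatives were no replicate block, a random block, a pseudocount of 0.1, a minimum mean of 5 TPM or none, quantile normalization, scaling to the 75th percentile, eBayes without trend or robust, no minimum fold, numbers 1 to 3 or 4 to 6 only, all 4 groups in the fit, and each number left out in turn. Median centring of each library and the test of a difference between number sets were added after seeing the data. The fits were tested on simulated data with known changes. Gene coordinates are those of the annotation for mm10 by GENCODE, and promoters are from RefSeq GRCm38.p6. Of the genes called higher, 75.9% had a promoter in the table, matched by symbol or synonym, under the 80% set for a comparison of sets, so a comparison of CpG content between called and other genes is void and none is given. The single-cell and ChIP-seq data of the study were not used here.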

Additional observations from a re-analysis of the deposited data

Results flagged for a closer look

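The change with EPZ6438 was compared with and without VPA by the interaction test in limma (Benjamini-Hochberg), and the 5 largest differences in each direction on log2(TPM + 1) are given. Values beside VPA minus values without it were 3.38 for Ifitm1, 2.53 for Fn1, 2.49 for Dmrt1, 2.45 for Tmem47 and 2.41 for Sntb1. These 5 had a mean under 1 TPM over +E and NC and passed the minimum mean in the interaction test only through +VE, which largely fixes the sign, so they are given as a description with no test. In the other direction the values were -3.29 for Olfm4 (adjusted p = 1.8e-05), -2.59 for Aqp5 (adjusted p = 0.0208), -2.55 for Rbpms (adjusted p = 2.8e-06), -1.997 for Bex4 (adjusted p = 0.00994) and -1.89 for Stk26 (adjusted p = 5.1e-05).

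Among the 24 genes with the largest changes, 1 pair stood apart from the other 5 by Dixon's criterion, which chance meets in about 1 of 20 groups. In pair 1 Defa29 changed by -0.98, and in the other pairs by -1.76 to -1.998.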

How the results depend on the processing

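The direction of each of the 92 called genes under the naming rule held under each alternative in which it could be fitted, and 54 of them were called in all of them. With no replicate block 395 genes were called for EPZ6438 alone, 375 of them shared with the blocked fit, and 16 of the 92 lost the call, Ces2a, Eda2r and Tgfb1 among them.

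Counts for EPZ6438 alone moved from 468 to 720 with a pseudocount of 0.1, to 215 with a minimum mean of 5 TPM and to 3436 with no minimum fold. Those beside VPA moved from 596 to 284 and 1416 with the latter 2 settings. The interaction moved from 127 to 73 with no replicate block, 47 with a minimum mean of 5 TPM, 218 with no minimum fold, 236 and 446 with numbers 1 to 3 and 4 to 6 only, and ranged from 81 to 141 with 1 number left out. Of its calls, 66.9% had the larger value beside VPA, 29.1% with a pseudocount of 0.1 and 29.8% with a minimum mean of 5 TPM. The difference from VPA alone moved from 458 to 740, 251 and 5122 with a pseudocount of 0.1, a minimum of 5 TPM and no minimum fold. With 1 number left out, the counts ranged from 425 to 493 for EPZ6438 alone. The settings with fewer or more genes differ by construction, and for the others the cause was not tested.

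Signs turned only for named genes that were not called: with numbers 1 to 3 only Clu was at -0.48, Ly6a at -0.41 and Anxa1 at -0.50. Lgr5, at 0.01, was at -0.15 with numbers 4 to 6 only, at -0.030 with all 4 groups in the fit and between -0.051 and 0.071 with 1 number left out. Hapln4 was at -0.23 with quantile normalization, and Lgals1 at -0.023 with no replicate block and -0.0011 with numbers 4 to 6 only.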

Other observations

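Further genes, chosen after their values were seen, are described here with limma's adjusted p (Benjamini-Hochberg). They were picked because they rose and stand for no group. Lin28b, an RNA-binding protein of fetal tissue, lay at most at 0.121 TPM in NC and between 1.21 and 6.61 TPM in +E, a change of 1.91. Lin28b, Calca and Gsdmc2 lay under 1 TPM in every NC library and passed the minimum mean only through +E, so their direction was fixed by that filter. Igf2bp3, another RNA-binding protein, lay between 0.665 and 6.96 TPM in NC and between 13.2 and 25.4 TPM in +E, a change of 1.86 (adjusted p = 0.0117, and 0.0507 without replicate number 1). Beside VPA, Lin28b changed by 1.58 and was called, and Igf2bp3 by 0.16. Scgn changed by 1.57, the granule membrane protein Ptprn by 1.56, Calca by 1.46 and Resp18 by 1.41.

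Nid1, a basement membrane protein, lay between 0.364 and 1.71 TPM in NC and between 9.70 and 15.6 TPM in +E (change 2.91, adjusted p = 3.4e-07). Ppic, a proline isomerase, lay between 6.18 and 32.6 TPM in NC and between 123 and 248 TPM in +E (change 2.82, adjusted p = 7.5e-05), and the collagen-modifying enzyme Plod2 changed by 2.24. The drug-metabolising enzyme Cyp1a1 changed by 2.60 and the gasdermins Gsdmc4 and Gsdmc2, near copies between which reads may have been shared out, by 2.66 and 2.44. All of these were higher in 6 of 6 pairs.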
